A study of Mus musculus with 3 samples.

Results

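The CC chemokines and their receptors were followed in single cells of mouse dorsal skin. A gene belonged to this group when its symbol was Ccl or Ccr followed by a number, with at most 1 closing letter for Ccl. The rule took 40 of the 32285 gene entries of the count files. These 40 entries carried 34 symbols, of which 24 were ligands and 10 were receptors. Of the 40 entries, 29 had 20 or more unique molecular identifiers (UMIs, each 1 counted RNA molecule) over the 3 libraries and were ranked by that total. The 29 ranked genes were 19 ligands and all 10 receptors. A further 3 entries had fewer than 20 UMIs, namely Ccl12 with 18, Ccl27b with 2 and a second entry named Ccl27a with 1. The remaining 8 entries were at 0, namely Ccl26, both entries of Ccl21b, both entries of Ccl21c and extra entries of Ccl27a, Ccl19 and Ccl21a. The last entries are near-identical gene copies between which reads can be split or lost, so the values of Ccl27a, Ccl21a and Ccl19 are uncertain to that extent.

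The cells came from female C3H/HeN mice aged 25 weeks, with the dorsal skin of 7 to 8 mice pooled into 1 library per group. The Neg library held vehicle controls, the AA library held mice with alopecia areata, and the AA+Ab library held AA mice given an antibody against CXCL12, a chemokine of the CXC family and not a member of the group described here. Alopecia areata is an autoimmune hair loss, and in this model it was induced in C3H/HeN mice by injecting cultured skin-draining lymph node cells of affected donors, so the transferred cells are themselves lymphocytes. The antibody library was read from its labels alone. With 1 pooled library per group there was no replicate, so no test was made, and every interval given is an exact 95% interval that covers counting error only.

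Chemokines are small secreted proteins that guide leukocytes along a gradient, and the CC family is named for a pair of adjacent cysteines near the start of the protein. Their receptors cross the membrane in a bundle of helices, couple to Gi proteins and are shared among several ligands. In skin, Ccl27 from keratinocytes is known to draw Ccr10+ lymphocytes, Ccl20 to draw Ccr6+ cells, and Ccl17 and Ccl22 to draw Ccr4+ cells, while Ccl3, Ccl4 and Ccl5 are inflammatory ligands that activated T cells, NK cells and macrophages secrete.

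Cells were kept when mitochondrial genes gave at most 10% of their UMIs and at least 200 genes were detected. This left 6582 of 6965 barcodes in Neg, 10433 of 10879 in AA and 9832 of 10507 in AA+Ab, with 119193310 to 139663314 UMIs per library and median UMIs per cell of 11177 to 13694.5. Levels are given in CPM, the UMIs of a gene per 1000000 UMIs of the library, class or cluster named. Cells were clustered without the member genes and named from marker lists, with 367, 908 and 826 cells taken as doublets set aside in Neg, AA and AA+Ab. The labelled tissue was skin, and 17 of 30 clusters were keratinocyte-like and held 77.7%, 83.0% and 79.3% of the remaining cells of Neg, AA and AA+Ab. T cell-like cells made up 1.63%, 3.64% and 2.30% of the cells of Neg, AA and AA+Ab, and DC/Mac-like cells (dendritic cells and macrophages) 0.965%, 1.17% and 1.05%. The DC/Mac-like class also held B cell-like and Langerhans cell-like cells, and its makeup differed between libraries: 8, 6 and 20 cells were B cell-like, 10, 3 and 11 Langerhans cell-like and 6, 35 and 10 macrophage-like in Neg, AA and AA+Ab. Neutrophil-like cells numbered 26, 3 and 83. Any 2 libraries shared 17 to 28 cell barcodes.

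Leaving out Ccl27a, the CC ligands together stood at 46.5 CPM in Neg, 116 in AA and 72.7 in AA+Ab. The receptors together stood at 9.64, 15.1 and 12.6 CPM. Both sums were highest in AA, and AA+Ab lay between AA and Neg in each. The AA+Ab to AA ratio of the receptor sum, 0.833, changed direction to 1.10 when each cell was thinned to 1000 UMIs and to 1.03 as a mean of per-cell levels. With class levels weighted by the class shares of Neg, the ratio of the ligand sum was 0.954 in place of 0.624. Of the 29 ranked members, 14 were at least 2-fold higher in AA than in Neg, or 48.3%, where 3.56% of all 20427 genes with 20 or more UMIs were. Among them were the ligands Ccl2, Ccl3, Ccl4, Ccl5, Ccl8, Ccl9, Ccl17, Ccl19, Ccl21a and Ccl24 and the receptors Ccr2, Ccr3 and Ccr8. Only Ccr7 was at least 2-fold lower, against 4.43% of all genes. With cells thinned to 1000 UMIs, these counts were 9 and 0. The median log2 ratio of AA to Neg was 0.96 over the members and -0.06 over all genes tested.

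In the comparison of AA+Ab with AA, 7 members were at least 2-fold lower, against 4.68% of all genes. Among them were the ligands Ccl4, Ccl5, Ccl8, Ccl9, Ccl11 and Ccl24. Another 4 were at least 2-fold higher, namely Ccl21a, Ccl22, Ccr1 and Ccr7, against 3.11% of all genes. In the comparison of AA+Ab with Neg, 11 members were higher and 2 lower by that rule, against 2.47% and 4.41% of all genes. Those lower were Ccl8 and Ccl11. The counts of 11 and 2 became 5 and 1 with cells thinned to 1000 UMIs and 7 and 0 with class levels weighted by the class shares of Neg, and under that weighting 4 members in place of 7 were lower in AA+Ab than in AA. The 3 comparisons share libraries, so the same AA count enters the first and second with opposite effect, and they are not independent of each other.

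**Figure D1:**
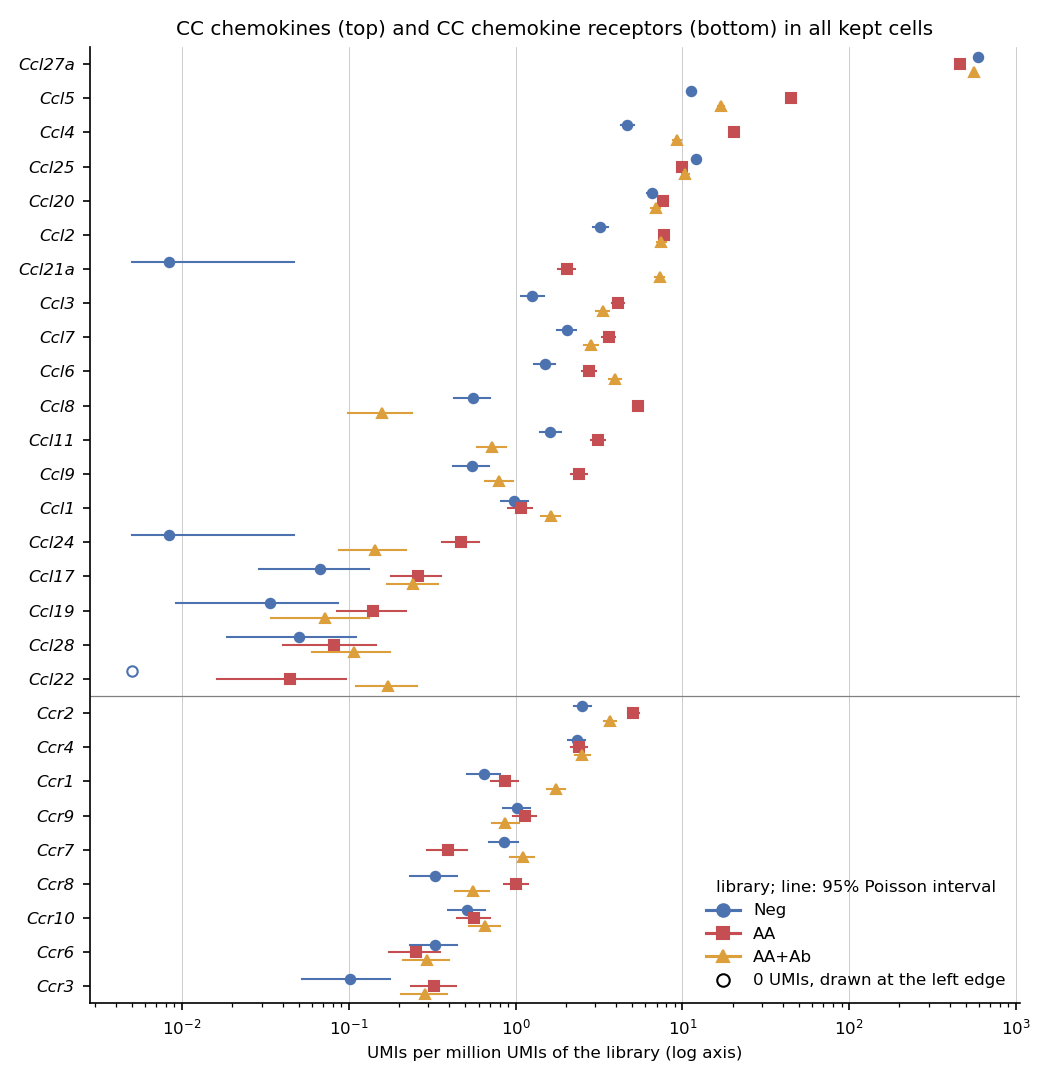
Level of each ranked member in each library, in CPM of the library on a log axis, with 19 ligands above the line and 9 receptors below it. Points are libraries, lines are 95% Poisson intervals, drawn only as far as the left edge of the plot, and the open symbol marks 0 UMIs; Ccl27a lies at 463 to 588 CPM while every other member lies at or below 44.8 CPM.

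The members were carried by different cells. In the map of UMIs by class, 9 ranked members had their largest share in keratinocyte-like cells, 10 in T cell-like cells, 4 in DC/Mac-like cells, and 2 each in fibroblast-like and neutrophil-like cells. Keratinocyte-like cells held 80.6%, 82.8% and 78.7% of the UMIs of Neg, AA and AA+Ab outside doublets, and for Ccl2, Ccl7, Ccl25, Ccr4 and Ccr9 the level per UMI of the class was highest in another class.

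**Figure D2:**
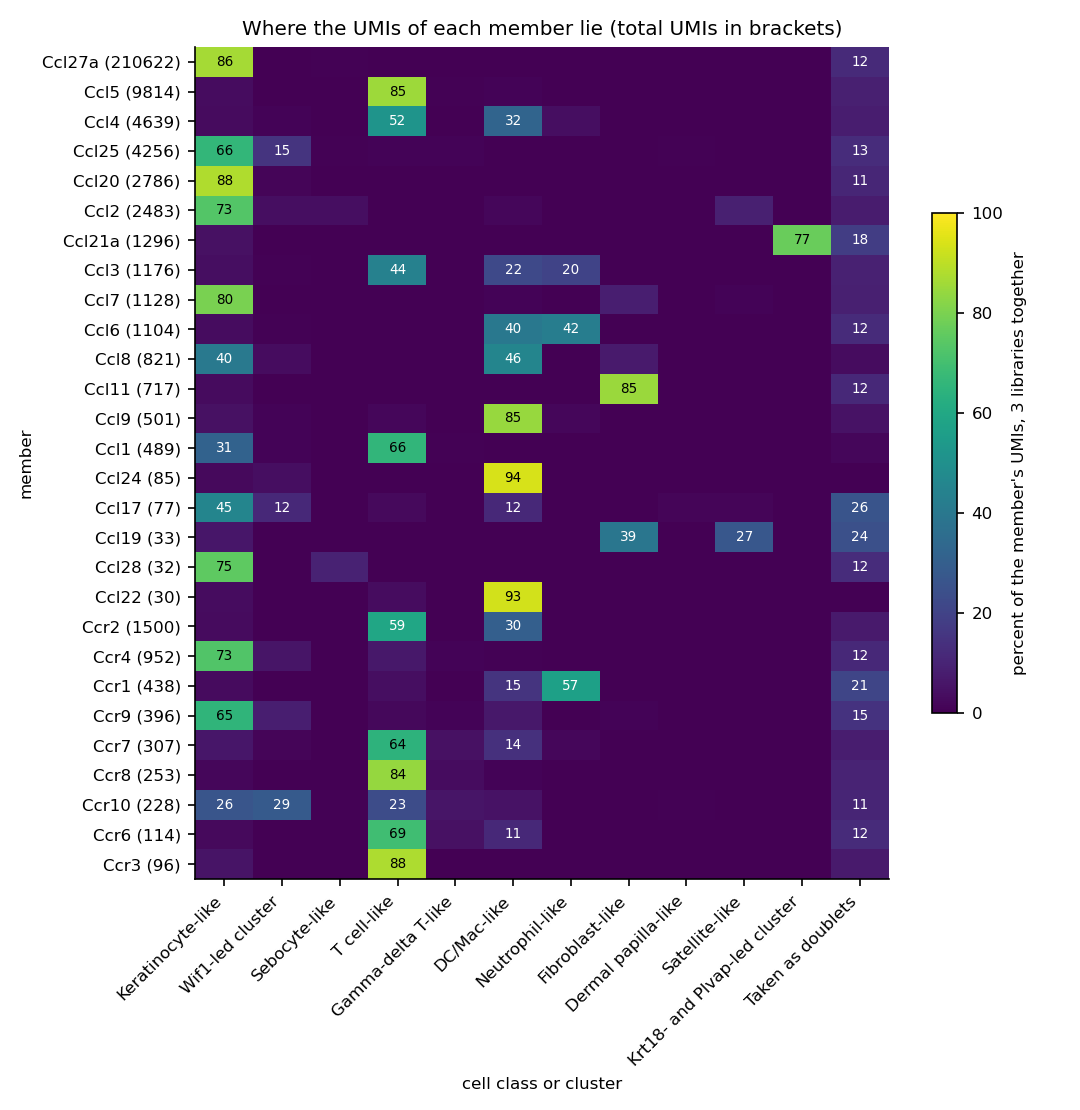
Percent of each member's UMIs, over the 3 libraries together, that lay in each cell class or cluster (columns; classes with few member UMIs are not drawn), with the total UMIs of each member in brackets; shares of 10% or more are printed. Ccl27a and Ccl20 lay in keratinocyte-like cells, Ccl5, Ccr3 and Ccr8 in T cell-like cells, Ccl9 and Ccl24 in DC/Mac-like cells and Ccl11 in fibroblast-like cells.

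Ccl27a (chromosome 4, 41769467 to 41774247, minus strand, GRCm38) encodes the keratinocyte chemokine CTACK, a ligand of Ccr10, and was the most abundant member by far. It stood at 588 CPM in Neg (95% interval 583 to 592), 463 in AA (459 to 466) and 557 in AA+Ab (553 to 561). It made up 92.7%, 79.9% and 88.5% of all CC ligand UMIs of these libraries. The AA level was the lowest of the 3, and the AA to Neg ratio was 0.787 (0.779 to 0.796). Within keratinocyte-like cells the levels were 722, 546 and 691 CPM, so AA was again the lowest. A UMI of Ccl27a was seen in 83.8%, 82.2% and 81.0% of keratinocyte-like cells, and in 46.7%, 39.5% and 45.5% once each cell was thinned to 1000 UMIs, with 13, 14 and 27 shallower cells left out. As T cell-like cells do not make Ccl27a, they served as a comparison, and a UMI was seen there in 12.9%, 11.0% and 10.1% of cells at median depths of 5093, 3732 and 4093 UMIs, against 11061 to 13582 in keratinocyte-like cells. The T cell-like levels of 25.7 to 40.2 CPM were read as the background for this gene.

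The keratinocyte-like clusters differed in Ccl27a far more than the libraries did. Over the 3 libraries it reached 1604 CPM in the cluster led by Fst and Sostdc1, 1249.9 CPM in the cluster led by Krt79 and Cst6, and 999.9 CPM in the largest cluster, led by Il20ra. It stood at 15.3 to 23.4 CPM in the clusters led by Ntn1 and Lgr5, by Krt71 and Krt25, by Csta1 and Krt75 and by Krt35, and at 16.2 CPM in the Wif1-led cluster, which holds keratins but was left unnamed. As CPM these levels were at or below those of the T cell-like cells, but a UMI was seen in 14.7% to 24.6% of the cells of these clusters, against 11.0% of the shallower T cell-like cells over the 3 libraries. In the 3 keratinocyte-like clusters with the most cells, AA was the lowest library and Neg the highest. In the Il20ra-led cluster the levels were 1172, 795 and 1035 CPM in Neg, AA and AA+Ab, and in the Fosl1-led cluster 986, 630.1 and 749 CPM.

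Ccl20 attracts Ccr6+ lymphocytes and dendritic cells and was read from keratinocyte-like cells, which held 88.0% of its UMIs. It stood at 6.57, 7.66 and 6.90 CPM in Neg, AA and AA+Ab, and the AA to Neg ratio was 1.17 (1.06 to 1.28). The cluster led by Itgb6, Krt16 and Ptgs2 held 1004 of its 2786 UMIs, at 49.8, 50.5 and 62.5 CPM. That cluster had 271, 1110 and 277 cells in Neg, AA and AA+Ab, so the level within it was similar while AA had most of its cells. In the Fst-led cluster Ccl20 stood at 6.69, 3.67 and 37.0 CPM. Few cells carried the gene: 19 cells held 50% of its UMIs over the 3 libraries, and 1 cell held 252 of the 1039 UMIs in AA.

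The bases before the gene start are shown for Ccl20 and Ccl9, the ligands whose window held a match to the NF-kB letters GGG and TTTCC with any 2 bases between. RefSeq promoter windows (GRCm38.p6, the C57BL/6J reference, while the mice were C3H/HeN) were found for 20 of the 29 ranked members, and the 250 bases before the start site were searched on both strands. For NF-kB the letters searched were GGG and TTTCC, and GGGA and TTCC, each pair with any 2 bases between, and these can overlap each other. For the interferon response element (ISRE) they were GAAA and GAAA with any 2 bases between, and for the STAT site (GAS) TTC and GAA with any 3 bases between. Capitals mark the match, which lies on the opposite strand and begins 80 bases before the start of Ccl20 (chr1:83116516-83116765, plus strand) and 35 bases before that of Ccl9 (chr11:83578637-83578886, minus strand). Each sequence reads 5′ to 3′ along the gene.
Ccl20: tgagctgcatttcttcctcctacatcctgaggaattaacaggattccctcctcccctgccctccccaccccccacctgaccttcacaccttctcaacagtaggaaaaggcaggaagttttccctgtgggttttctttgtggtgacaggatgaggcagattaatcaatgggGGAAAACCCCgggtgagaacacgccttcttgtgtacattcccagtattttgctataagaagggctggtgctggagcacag
Ccl9: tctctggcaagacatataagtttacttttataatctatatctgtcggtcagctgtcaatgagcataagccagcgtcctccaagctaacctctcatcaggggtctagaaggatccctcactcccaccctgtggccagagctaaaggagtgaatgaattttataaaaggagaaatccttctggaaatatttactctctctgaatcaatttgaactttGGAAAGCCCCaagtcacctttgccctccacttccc
The first NF-kB letters were found in 3 of the 20 windows (Ccl20, Ccl9 and Ccr3) and in 1.41% of all 32851 promoter windows. The second were found in those of Ccl1 and Ccr3 and in 1.21% of all windows, but the Ccl1 window lies 125878 bases from the annotated start of that gene and is not shown. The ISRE letters were found in that of Ccl19 alone (2.98% of all windows), and the GAS letters in those of Ccl17 and Ccr6 (7.02% of all windows). A match is a description of letters and not a measured binding site.

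Ccl2 and Ccl7, neighbouring genes on chromosome 11 that encode monocyte attractants acting on Ccr2, were also read mostly from keratinocyte-like cells. Ccl2 stood at 3.22 CPM in Neg, 7.77 in AA and 7.48 in AA+Ab. Both AA libraries lay above Neg, at ratios of 2.41 (2.14 to 2.72) and 2.32 (2.06 to 2.62). The cells behind these similar levels were not the same clusters. In AA, 633 of 1054 UMIs lay in the cluster led by Krt6a and Trabd2b, where Ccl2 stood at 0.757, 149 and 2.90 CPM in Neg, AA and AA+Ab. In AA+Ab, 420 of 1045 UMIs lay in the Fst-led cluster, at 17.0, 11.5 and 42.1 CPM in the 3 libraries, and 279 in the Krt79-led cluster, at 10.5, 9.33 and 39.3 CPM. In AA, 2 cells of the Krt6a-led cluster held 280 and 152 UMIs, while no cell of AA+Ab held more than 40. The first of them had 60220 UMIs in all and held UMIs of 8 of 8 T cell markers and 18 of 24 keratinocyte markers, but was not taken as a doublet, and the part of this in its Ccl2 count was not tested. Without the cell with the most UMIs in each library, the AA+Ab to AA ratio of Ccl2 changed direction, from 0.963 (0.883 to 1.05) to 1.26.

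Ccl7 stood at 2.03, 3.63 and 2.82 CPM, and the AA to Neg ratio was 1.79 (1.53 to 2.09). It followed the same clusters: 0 UMIs in Neg, 189 in AA and 6 in AA+Ab in the Krt6a-led cluster, and 157, 88 and 217 in the Fst-led cluster. Fibroblast-like cells also carried Ccl7, with 3, 80 and 13 UMIs in 39, 86 and 25 cells, or 7.87, 129 and 76.6 CPM, but only 1, 3 and 2 of these cells held any, and 1 cell of AA held 73 of the 80.

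**Figure D3:**
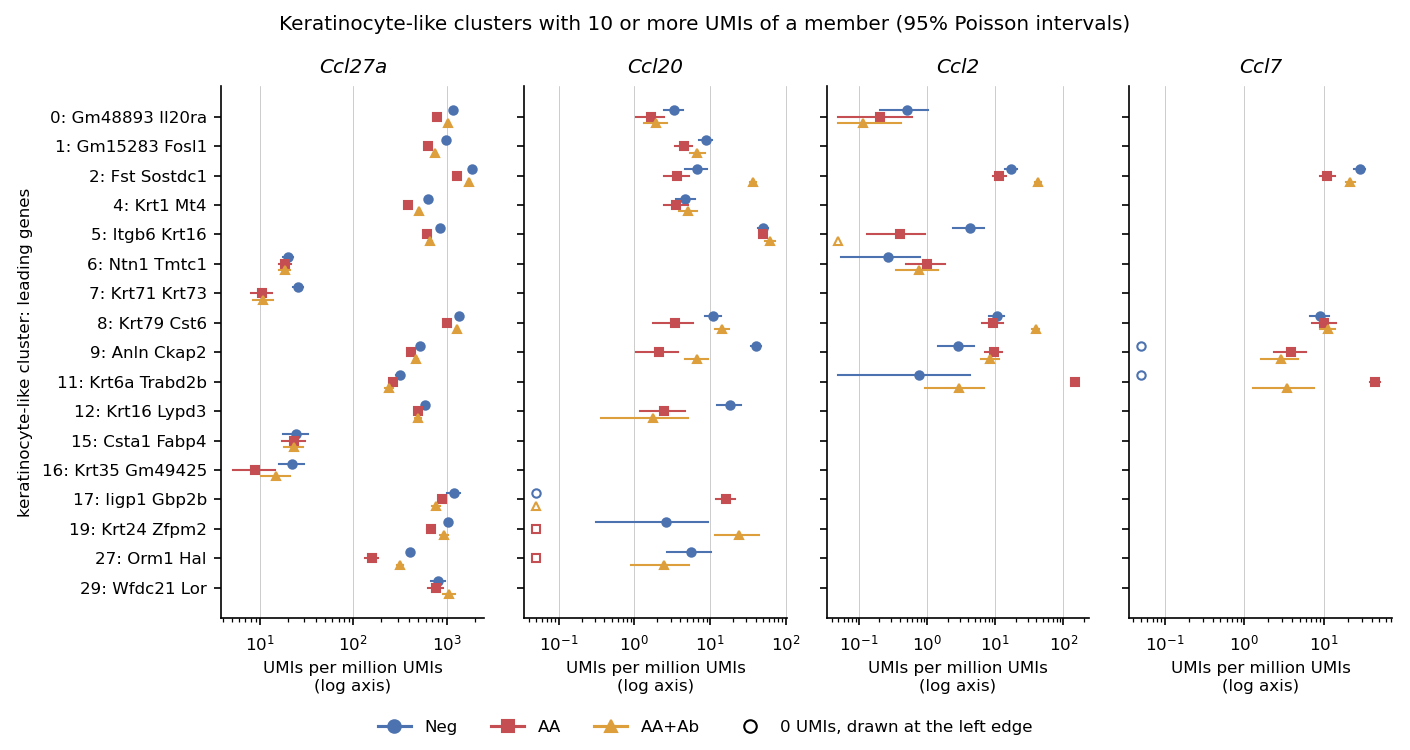
Ccl27a, Ccl20, Ccl2 and Ccl7 in the keratinocyte-like clusters (rows, with leading genes) that held 10 or more UMIs of the gene, by library, in CPM of the cluster on log axes with 95% Poisson intervals; open symbols mark 0 UMIs. In the Krt6a-led cluster Ccl2 stood at 149 CPM in AA and at 0.757 and 2.90 CPM in Neg and AA+Ab.

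The other ligands with their largest share of UMIs in keratinocyte-like cells were Ccl25, Ccl28 and Ccl17. Ccl25, a ligand of Ccr9 best known from thymus and gut, stood at 12.0, 10.0 and 10.4 CPM and had 66.4% of its UMIs in keratinocyte-like cells, a smaller share than the share of all UMIs those cells held. Per UMI of the class it was higher in gamma-delta T-like cells (25.6 CPM) and melanocyte-like cells (18.6 CPM) than in keratinocyte-like cells (10.1 CPM). It was spread thinly, with 3339 cells holding 4256 UMIs and no cell more than 7. Ccl28, a mucosal ligand of Ccr10, had 6, 11 and 15 UMIs, and Ccl17, a ligand of Ccr4, had 8, 35 and 34 UMIs. Over all cells, the interval of the AA+Ab to Neg ratio of Ccl28 (0.782 to 6.71) included 1. For Ccl17 the intervals of both ratios to Neg did not (1.75 to 9.60 for AA and 1.65 to 9.07 for AA+Ab). Keratinocyte-like cells held only 5, 11 and 19 of the Ccl17 UMIs, and doublets held 26.0% of the total. In keratinocyte-like cells the interval of AA to Neg (0.611 to 7.00) included 1 and that of AA+Ab to Neg (1.22 to 11.6) did not. In AA, 3 cells held 17 of the 35 Ccl17 UMIs.

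Ccl5, Ccl4 and Ccl3 are inflammatory chemokines secreted by cytotoxic lymphocytes and macrophages. They had the most UMIs of the leukocyte ligands over the 3 libraries together. Ccl3, with 1176, was little above Ccl6, with 1104, and was below Ccl6 in Neg and AA+Ab. Ccl5 stood at 11.3 CPM in Neg, 44.8 in AA and 17.0 in AA+Ab, so AA was 3.95 times Neg (3.73 to 4.20). Ccl4 stood at 4.68, 20.5 and 9.33 CPM, and AA was 4.38 times Neg (3.99 to 4.80). Ccl3 stood at 1.26, 4.13 and 3.34 CPM, and AA was 3.28 times Neg (2.74 to 3.96). All 3 were highest in AA, and AA+Ab stood at 0.380, 0.455 and 0.808 of AA for Ccl5, Ccl4 and Ccl3.

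T cell-like cells held 85.5% of the Ccl5 UMIs and 51.9% of the Ccl4 UMIs. Within this class Ccl5 stood at 2059, 3513 and 2055 CPM in Neg, AA and AA+Ab, a smaller spread than over whole libraries. The AA to Neg ratio within the class was 1.71 (1.60 to 1.82), and the class held 0.550%, 1.25% and 0.776% of the UMIs of the cells that were not doublets. A Ccl5 UMI was seen in 32.7%, 66.6% and 32.9% of T cell-like cells, and in 29.7%, 57.2% and 28% after thinning to 1000 UMIs. In keratinocyte-like cells the share was 0.621%, 1.75% and 0.448%, at the greater depth given above for these cells. The part of free RNA in these shares was not tested.

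The sub-clusters behind these values were unequal in size. The CD8 T cell-like sub-cluster (Cd8a, Cd8b1, Nkg7) had 2, 169 and 26 cells in Neg, AA and AA+Ab, and in it Ccl5 stood at 360.5, 5008 and 3078 CPM and Ccl4 at 451, 1712 and 2890.1 CPM. Its Neg values rest on 4 and 5 UMIs in 2 cells. The NK cell-like sub-cluster (Ncr1, Klre1, Prf1) had 22, 25 and 15 cells, and in it Ccl5 was lowest in AA, at 6784, 3055 and 6845 CPM. In the sub-cluster led by Lef1 and S1pr1, with 25, 35 and 38 cells, Ccl5 stood at 2230.5, 4189 and 4449 CPM. A further sub-cluster with CD8 markers but few UMIs per cell, led by Ctla2a and Ifng, had 2, 36 and 22 cells and Ccl5 at 1589, 6637 and 1552 CPM. In AA, 3189 of the 5245 Ccl5 UMIs of T cell-like cells lay in the CD8 T cell-like sub-cluster, while in Neg 750 of 1201 lay in the NK cell-like sub-cluster. Gamma-delta T-like cells had almost none: 24, 20 and 0 UMIs of Ccl5 in 130, 91 and 177 cells.

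In T cell-like cells Ccl3 stood at 118, 233 and 104 CPM. Ccl4 and Ccl3 were also read from DC/Mac-like cells. Ccl4 stood there at 350.4, 1347 and 926 CPM, and Ccl3 at 9.67, 228 and 210.3 CPM. Ccl3 had only 4 UMIs in the 60 DC/Mac-like cells of Neg, so its AA to Neg ratio of 23.6 has a wide interval (9.02 to 87.7). Neutrophil-like cells gave a further 57, 1 and 179 UMIs of Ccl3, where their cells numbered 26, 3 and 83.

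Ccl1, a ligand of Ccr8 from activated T cells and mast cells, shows how much single cells can weigh. It had 117, 145 and 227 UMIs, or 0.982, 1.07 and 1.63 CPM. In AA+Ab 1 CD8 T cell-like cell held 214 of the 227 UMIs, and in Neg 1 keratinocyte-like cell held 99 of the 117. Without the cell with the most UMIs in each library, the AA to Neg ratio changed from 1.09 to 4.05 and the AA+Ab to AA ratio from 1.52 to 0.152.

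**Figure D4:**
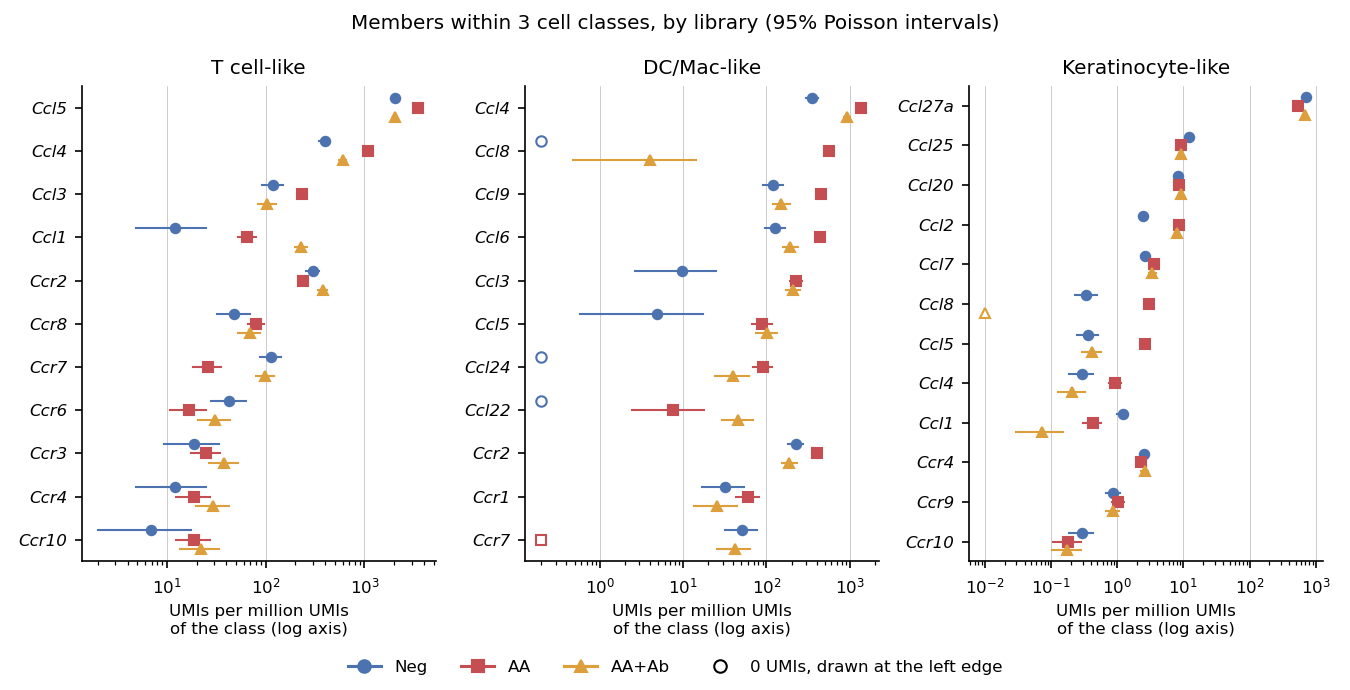
Members in T cell-like, DC/Mac-like and keratinocyte-like cells by library, in CPM of the class on log axes, with 95% Poisson intervals; open symbols mark 0 UMIs. In T cell-like cells Ccl5 stood at 2059, 3513 and 2055 CPM and Ccr7 at 113, 26.1 and 98.3 CPM in Neg, AA and AA+Ab.

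Ccl8, which in mice binds Ccr8, had the lowest AA+Ab to AA ratio of the 29 ranked members. It had 66 UMIs in Neg, 733 in AA and 22 in AA+Ab, or 0.554, 5.41 and 0.158 CPM. AA stood at 9.76 times Neg (7.58 to 12.8) and AA+Ab at 0.0291 of AA (0.0181 to 0.0445). DC/Mac-like cells held 0, 372 and 2 of these UMIs and keratinocyte-like cells 29, 303 and 0. A further 23 of the 66 UMIs of Neg lay in 1 cell of the unnamed Wif1-led cluster. That cell had 28288 UMIs in all and was not taken as a doublet. It held UMIs of 7 of 8 macrophage markers, 9 of 14 DC/Mac markers and 16 of 24 keratinocyte markers. In AA, 325 UMIs lay in 6 macrophage-like cells (C1qa, Mrc1, Cd163), of which 1 held 236. Macrophage-like cells numbered 6, 35 and 10 in Neg, AA and AA+Ab, and the summed level of 8 macrophage markers was 5.62, 13.6 and 3.42 CPM, with 8 of 8 higher in AA than in Neg and 0 of 8 higher in AA+Ab than in AA. Their part in the Ccl8 difference was not tested. Without the cell with the most UMIs in each library, the AA to Neg ratio was 10.2 and the AA+Ab to AA ratio 0.0313. The AA+Ab to Neg ratio, 0.284 (0.167 to 0.467), changed direction when cells were thinned to 1000 UMIs.

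The keratinocyte-like Ccl8 of AA lay mostly in 3 clusters. It had 125 UMIs in the cluster led by the interferon-induced genes Iigp1 and Gbp2, which had 5, 261 and 34 cells, 73 in the cluster led by the cell division genes Anln and Aspm and 68 in the Krt6a-led cluster, with 0 in AA+Ab in each. In Neg, 1 cell of the Iigp1-led cluster held 22 UMIs. Fibroblast-like cells showed another order, with 10, 34 and 14 Ccl8 UMIs, or 26.2, 54.7 and 82.4 CPM. Neighbouring Ccl12, another monocyte attractant, had 0, 15 and 3 UMIs and was too low to rank.

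Ccl9, Ccl6 and Ccl24 were ligands of myeloid cells. Ccl9, a ligand of Ccr1, stood at 0.545, 2.40 and 0.795 CPM, with 84.6% of its UMIs in DC/Mac-like cells. Within that class it stood at 121, 449.9 and 151 CPM, and in AA it was read from 23 of 35 macrophage-like cells and from 22 of 30 cells of the sub-cluster led by Cxcl2 and Osm. Ccl6, another Ccr1 ligand, stood at 1.49, 2.76 and 3.95 CPM and was highest in AA+Ab. Its UMIs were split between DC/Mac-like cells, with 53, 293 and 98 (128, 442 and 194 CPM), and neutrophil-like cells, with 97, 17 and 355. The summed level of 6 neutrophil markers was 97.1, 24.0 and 171 CPM, and its part in the Ccl6 values was not tested. Within neutrophil-like cells, Ccl6 stood at 1005, 1866 and 1606 CPM, where the AA value rests on 3 cells.

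Ccl24, an eotaxin acting on Ccr3, had 1, 64 and 20 UMIs, with 94.1% in DC/Mac-like cells, and 3 cells held 50% of them. The AA to Neg ratio of 56.3 had an interval of 9.74 to 2256. Ccl22, a dendritic cell ligand of Ccr4, had 0, 6 and 24 UMIs, of which 1 cell of AA+Ab held 20.

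Ligands of stromal cells followed. Ccl11, the eotaxin of fibroblasts, stood at 1.61, 3.13 and 0.723 CPM in whole libraries, and AA+Ab was 0.231 of AA (0.184 to 0.288). Within fibroblast-like cells, which held 84.8% of its UMIs, it stood at 449, 561 and 518 CPM. Fibroblast-like cells numbered 39, 86 and 25, or 0.628%, 0.903% and 0.278% of cells. The libraries differed in these numbers more than in Ccl11 within the class. The part of the cell numbers in the whole-library Ccl11 difference was not tested. The AA+Ab to AA ratio within the class was 0.923 (0.722 to 1.17). The AA+Ab to Neg ratio over all cells, 0.449 (0.349 to 0.574), changed direction with class levels weighted by the class shares of Neg. The summed level of 8 fibroblast markers over all cells was 339, 439 and 388 CPM, and 1 of the 8 was higher in AA+Ab than in AA.

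Ccl21a, the Ccr7 ligand of lymphatic vessels, had 1, 275 and 1020 UMIs in Neg, AA and AA+Ab. Almost all of them came from 7 cells, with 470, 257, 207 and 58 UMIs in 4 cells of AA+Ab and 105, 72 and 66 in 3 cells of AA. Each of these 7 cells also held UMIs of Flt4 and Mmrn1, markers of lymphatic endothelium. Of the 5 markers listed for that cell type, the cells of AA+Ab held 5, 2, 4 and 4 and those of AA 5, 5 and 3, in the order above. Lyve1, Prox1 and Pdpn were each at 0 in some of the cells. Of the 7 cells, 3 had been taken as doublets, and the other 4 lay in the 55-cell cluster led by Krt18 and Plvap, which was left unnamed. The ratio of AA+Ab to AA, 3.60 (3.15 to 4.13), therefore compares 4 cells with 3. Ccl19, the other Ccr7 ligand, had 4, 19 and 10 UMIs and was too low to compare beyond counting error in AA+Ab against AA (0.511, 0.212 to 1.16).

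**Figure D5:**
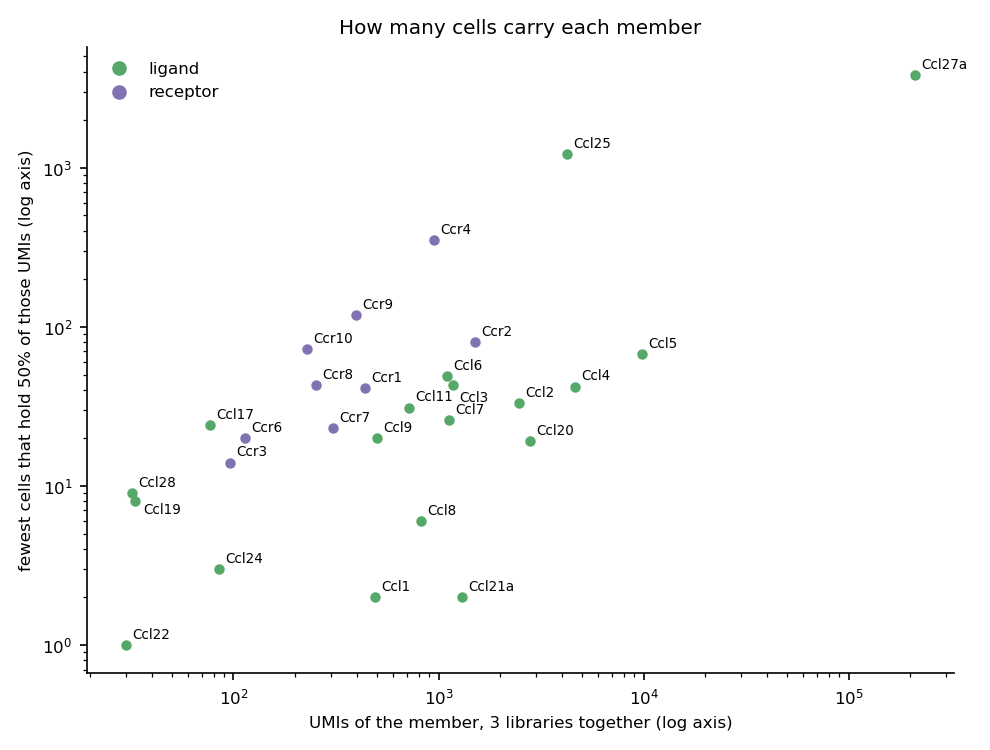
Total UMIs of each ranked member over the 3 libraries (horizontal log axis) against the fewest cells that together hold 50% of them (vertical log axis), ligands in green and receptors in purple. Ccl1 and Ccl21a needed 2 cells for 489 and 1296 UMIs, while Ccr4 needed 351 cells for 952 UMIs.

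Over all ranked members, 4 had 50% of their UMIs in at most 5 cells (Ccl21a, Ccl1, Ccl24 and Ccl22), 7 in at most 10 cells and 22 in at most 50 cells. All 7 that needed at most 10 cells were ligands. The Poisson intervals treat UMIs as independent, which UMIs of 1 cell are not.

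Some receptors were read from leukocytes and others mostly from keratinocyte-like cells. Ccr2, the monocyte and effector T cell receptor for Ccl2, Ccl7 and Ccl12, stood at 2.51, 5.07 and 3.68 CPM, and AA was 2.02 times Neg (1.76 to 2.32). T cell-like cells held 59.3% and DC/Mac-like cells 30.1% of its UMIs, and the classes differed in the order of the libraries. In T cell-like cells Ccr2 stood at 300 CPM in Neg, 238 in AA and 381 in AA+Ab, and in DC/Mac-like cells at 225, 399 and 188 CPM. The T cell-like values cover sub-clusters of unequal size. The CD8 T cell-like sub-cluster, where Ccr2 was low (91.1 CPM in AA), held 169 of the 347 T cell-like cells of AA and 2 of the 101 of Neg. In the CD4 T cell-like sub-cluster led by Il5, Ccr2 stood at 285, 693 and 886 CPM in Neg, AA and AA+Ab and was read from 3 of 5, 25 of 31 and 47 of 52 cells. It stood at 962, 984 and 864 CPM in the sub-cluster led by Arg1, at 23.6, 139 and 98.9 CPM in the one led by Lef1 and S1pr1, at 129, 473 and 230.2 CPM in Treg-like cells (Foxp3, Ctla4) and at 190, 154 and 202 CPM in NK cell-like cells. AA was therefore below Neg over the class but above it in the Il5-led, Lef1-led and Treg-like sub-clusters, where the Neg values rest on 12, 3 and 3 UMIs.

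Ccr8, the receptor of Ccl1 and Ccl8, stood at 0.327, 1.01 and 0.551 CPM, with 84.2% of its UMIs in T cell-like cells. Of the 120 UMIs in AA T cell-like cells, 84 lay in the CD8 T cell-like sub-cluster, where 53 of 169 cells had one. Within T cell-like cells Ccr8 stood at 48.0, 80.4 and 68.7 CPM, and the AA to Neg ratio was 1.67 (1.10 to 2.63).

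Ccr7, the lymph node homing receptor of naive and central memory T cells, was lower in AA than in Neg. It stood at 0.847, 0.391 and 1.10 CPM, so AA was 0.461 of Neg (0.324 to 0.649) and AA+Ab 2.80 times AA (2.04 to 3.91). The levels within T cell-like cells were 113, 26.1 and 98.3 CPM. In the sub-cluster led by Lef1 and S1pr1, Ccr7 had 57, 6 and 65 UMIs, and it was read from 17 of 25, 4 of 35 and 20 of 38 cells. Over all cells thinned to 1000 UMIs, a Ccr7 UMI was left in 0.111%, 0.0966% and 0.165% of cells, on 7, 10 and 16 cells, and AA was no longer past 2-fold below Neg. Within the Lef1-led sub-cluster Ccr7 stood at 448, 41.6 and 378 CPM. A Ccl5 UMI was seen in 20%, 62.9% and 34.2% of the cells of this sub-cluster. The part of its makeup in the Ccr7 difference was not tested. Treg-like cells showed another order, with 5, 20 and 25 UMIs in 6, 13 and 16 cells, or 214, 263 and 359.7 CPM, and B cell-like cells 10, 0 and 21 UMIs in 8, 6 and 20 cells.

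Ccr3 and Ccr6 marked small T cell-like sub-clusters. Ccr3, the eotaxin receptor, had 12, 44 and 40 UMIs, of which 7, 23 and 29 lay in the Il5-led CD4 T cell-like sub-cluster of 5, 31 and 52 cells. Ccr4, the receptor of Ccl17 and Ccl22, was read from 1, 8 and 15 cells of the same sub-cluster. Ccr6 had 39, 34 and 41 UMIs, of which 15, 14 and 20 lay in the sub-cluster led by Il23r and Trdc, with 17, 16 and 20 cells. Within that sub-cluster Ccr6 stood at 156, 192 and 230 CPM, with Ccl20, its ligand, in the keratinocyte-like cells described above. Over all T cell-like cells the order was another, with 25, 25 and 29 UMIs or 42.9, 16.7 and 30.7 CPM. The AA to Neg ratio of Ccr6 in that class was 0.391 (0.215 to 0.709).

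Ccr1 had 56.8% of its UMIs in neutrophil-like cells. It stood at 0.646, 0.863 and 1.75 CPM, and neutrophil-like cells held 53, 10 and 186 of its 77, 117 and 244 UMIs. In DC/Mac-like cells it stood at 31.4, 60.4 and 25.8 CPM. AA was the highest library there. Per UMI of the neutrophil-like cells the level was 549 CPM in Neg, 1098 in AA and 842 in AA+Ab, where the AA value rests on 10 UMIs in 3 cells. With class levels weighted by the class shares of Neg, the AA+Ab to AA ratio of 2.02 (1.62 to 2.55) changed direction.

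Ccr4, Ccr9 and Ccr10 were read mostly outside leukocytes. Ccr4 stood at 2.32, 2.39 and 2.51 CPM, and keratinocyte-like cells held 72.9% of its 952 UMIs. The cluster led by Krt1 and Krt10, genes of the suprabasal epidermis, held 295 of them, at 10.0, 9.41 and 9.77 CPM. In comparison, T cell-like cells had 12.0, 18.8 and 29.6 CPM and the largest keratinocyte-like cluster 1.16, 1.37 and 1.51 CPM. Over the libraries the intervals of the Krt1-led cluster (8.67 to 10.9) and the largest cluster (1.04 to 1.74) did not overlap, and no cell of any library held more than 7 UMIs. Ccr9, the receptor of Ccl25, had 121, 154 and 121 UMIs, of which 36, 41 and 25 lay in the Krt1-led cluster. Ccr9 overlaps the gene Gm17200 on the same strand, so its reads are uncertain. Ccr10, the receptor of Ccl27, had 61, 76 and 91 UMIs, spread over the Wif1-led cluster with 65, keratinocyte-like cells with 60 and T cell-like cells with 53. T cell-like cells had 6.86, 18.8 and 22.2 CPM of Ccr10, where the Neg value rests on 4 UMIs in 3 cells. The interval of that Neg level (1.87 to 17.6) overlapped that of AA (12.5 to 27.1). The most abundant ligand of Ccr10, Ccl27a, was at its lowest in AA, and a relation between ligand and receptor was not tested.

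For Ccr4, Ccr6, Ccr9 and Ccr10, no ratio between libraries over all cells lay outside 0.763 to 1.27. The interval of each ratio included 1, except that of AA+Ab to AA for Ccr9 (0.763, 0.596 to 0.974).

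Within classes the members past 2-fold are read against each class's own background. In DC/Mac-like cells 8 of 15 members with 20 or more UMIs in the class were at least 2-fold higher in AA than in Neg, where 9.34% of all genes were, and 1 was lower (8.79%). In AA+Ab against AA, 3 were higher (5.65%) and 7 lower (11.7%), and in AA+Ab against Neg 6 were higher (6.05%) and 2 lower (11.3%). The part of the unequal numbers of macrophage-like and B cell-like cells in these counts was not tested. Among T cell-like cells 3 of 14 members were higher in AA than in Neg (10.0% of all genes) and 2 lower (5.64%), and in AA+Ab against AA 2 were higher (4.37%) and 2 lower (5.06%). In AA+Ab against Neg 4 T cell-like members were higher (8.98%) and 1 lower (5.44%). In keratinocyte-like cells 8 of 21 were higher in AA than in Neg (2.67%) and 1 lower (4.35%), and in AA+Ab against AA 0 were higher (2.72%) and 6 lower (4.54%). In AA+Ab against Neg 5 keratinocyte-like members were higher (1.88%) and 3 lower (4.69%). The keratinocyte-like set includes Ccl5, Ccl4, Ccl3 and Ccl9 at 0.0234 to 2.65 CPM, levels far below those of the leukocyte classes that carry them, and the part of free RNA in those ratios was not tested.

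Other listed genes of the pathway were counted by the same 2-fold rule. Over all genes, 2.47% to 4.68% were past it in each direction of the 3 comparisons. A count of 0 in lists this short lies near these shares, and differences under 2-fold are not counted by the rule. Atypical and decoy receptors bind ligands without guiding cells, and those listed are not limited to receptors of CC chemokines. Of these 5 receptors, 0 were past 2-fold in any comparison. Ackr3 stood at 65.7, 66.2 and 69.1 CPM and Ackr4 at 35.7, 32.2 and 38.4 CPM, both mostly in keratinocyte-like cells (83.8% and 85.4% of their UMIs). The 25 symbols listed for Gi signalling and leukocyte migration stood for 23 genes, as Grk2 and Grk3 were also listed under older names. All 23 were found and 0 were past 2-fold. Dock2, a guanine exchange factor for Rac in leukocytes, came closest, at 9.62, 18.3 and 12.2 CPM, with 52.7% of its UMIs in T cell-like cells. Its AA to Neg ratio was 1.90 (1.77 to 2.04). Of 6 genes that trim chemokines or make the heparan sulfate to which they bind, 0 were past 2-fold, and Sdc4, a cell-surface proteoglycan, was the most abundant at 740.4, 882 and 809 CPM.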

How the data were processed

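Single-cell libraries were made with a 3′ kit from dissociated dorsal skin, 1 pooled library for each of 3 groups. The values used are the UMI counts per gene and cell that the authors deposited, and the submitters' processing notes name Cell Ranger 7.2.0, FastQC 0.11.7 and the build mm10. As these are 3′ counts they were not divided by gene length. Cells with at most 10% mitochondrial UMIs and at least 200 genes were kept, and levels are summed counts of a library, class or cluster over its total. Doublets were called against simulated pairs and left out of the classes but kept in whole-library sums. Clusters were made in Seurat 5.3.0 (R 4.3.3) from 2000 variable genes less the members, 30 principal components and a resolution of 0.8, without integration. Intervals were computed in Python 3.11.15 with scipy 1.17.1 as exact Poisson (levels), exact conditional binomial (ratios) and Clopper-Pearson (shares) intervals at 95%. Ratios against a library at 0 UMIs use a floor of 3 counts. The calculation of ratios was tested on simulated data. The members, gene lists and alternatives were chosen with earlier results of these data known. A ranked receptor that enters the counts and sums is not reported here. Genes named are the other members with 20 or more UMIs, and genes of the lists for atypical receptors, signalling and trimming. The alternatives changed filters, denominator, depth, weighting, fold, clustering and doublets, and those that left out the cells with the most UMIs were chosen after seeing the data.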

Additional observations from a re-analysis of the deposited data

Results flagged for a closer look

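Members that lay past 2-fold in opposite directions in 2 named classes are given here as log2 ratios. Only ratios with UMIs in both libraries and an interval that left out 1 were taken. In each case the difference was not tested. Ccl1 stood at -1.51 in keratinocyte-like and 2.44 in T cell-like cells for AA against Neg. For AA+Ab against AA it stood at -2.54 and 1.82, and for AA+Ab against Neg at -4.06 and 4.26. Of the Ccl1 UMIs, 1 cell held 99 of 104 in keratinocyte-like cells of Neg, 214 of 217 in T cell-like cells of AA+Ab and 62 of 97 in those of AA.

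Ccl2 stood at 1.81 in keratinocyte-like cells, -1.74 in satellite cell-like cells and 4.79 in sebocyte-like cells for AA against Neg. For AA+Ab against Neg it stood at 1.72 in keratinocyte-like and -1.39 in satellite cell-like cells, and for AA+Ab against AA at 1.17 in DC/Mac-like and -4.66 in sebocyte-like cells. Here 1 cell held 88 of 89 UMIs in satellite cell-like cells of Neg, and that cell also held 86 UMIs of Krt5 and 119 of Krt14, while 1 cell held 88 of 92 in sebocyte-like cells of AA. Ccl3 stood at 2.88 in neutrophil-like cells and -1.17 in T cell-like cells for AA+Ab against AA, where the 3 neutrophil-like cells of AA held 1 UMI.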

How the results depend on the processing

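With 1 library per group no replicate could be left out. No paired analysis was possible because each group holds 1 library and no result comes from a test. Under the alternatives, 100 of 130 summary values stayed within the counting error or 1.5 times the count, 28 moved beyond it and 2 changed direction. Of 744 values of single members, 570 stayed within the counting error, 171 moved beyond it and 3 that were past 2-fold in the report changed direction. Values under 2-fold that crossed 1 are not counted as changes of direction. Among them were Ccl1 and Ccl2 for AA+Ab to AA without the cell with the most UMIs of a member in each library (log2 ratios of -2.72 and 0.33). The causes were not tested. With cells thinned to 1000 UMIs, 9 members in place of 14 were higher and 0 in place of 1 lower in AA than in Neg, 5 higher and 1 lower in AA+Ab than in Neg, the ligand sum without Ccl27a gave AA to Neg 2.59 (2.50 in the report) and AA+Ab to AA 0.597 (0.624), the receptor sum 1.24 (1.57) and 1.10 (0.833), and Ccl8 AA+Ab against Neg a log2 ratio of 0.38 (-1.81). As a mean of per-cell CPM, 0 members were lower in AA+Ab than in Neg, the ligand sum gave 2.62 and 0.601, and the receptor sum gave AA to Neg 1.40, AA+Ab to AA 1.03 and AA+Ab to Neg 1.44 (1.31). With class levels weighted by the class shares of Neg, 2 members were lower in AA than in Neg, 4 lower in AA+Ab than in AA, and 7 higher and 0 lower in AA+Ab than in Neg. The ligand sum then gave 1.93, 0.954 and 1.84 (1.56) for AA to Neg, AA+Ab to AA and AA+Ab to Neg, the receptor sum 1.18, 0.915 and 1.08, Ccl11 AA+Ab against Neg a log2 ratio of 0.13 (-1.16) and Ccr1 AA+Ab against AA -0.54 (1.02). Without mitochondrial, ribosomal protein and hemoglobin genes in the total, the ligand sum gave AA+Ab to AA 0.646. Without the cell with the most UMIs of a member in each library it gave 0.596, and without the 3 such cells 0.559, with 2.61 for AA to Neg, 1.46 for AA+Ab to Neg and 1 member lower in AA+Ab than in Neg. The class with the largest share changed for Ccl21a at a resolution of 0.4, for Ccr10 at 1.5, and for both with doublets kept. Values within T cell-like, DC/Mac-like, keratinocyte-like and fibroblast-like cells were recomputed only under the other clusterings, among them the one with doublets kept. Of these 608 values, 571 stayed within the counting error, 37 moved beyond it and 0 that were past 2-fold changed direction. Thinning, weighting and leaving out the cells with the most UMIs were not applied to them. Depth limits the members with few UMIs, such as Ccl22, Ccl28 and Ccl19, to wide intervals.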
